A study of Mus musculus with 24 samples.

Results

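The TGF-β, BMP and activin pathway was examined as a list of 43 genes that covers its ligands, the proteins that hold ligands latent, secreted antagonists, receptors, SMAD proteins and a few genes known to respond to the pathway. The members were picked by gene symbol, with no threshold on their values, although earlier results of these data were known when the list was made. Of the 43, 32 had a row among the 13915 genes of the batch 2 count table, and their Ensembl identifiers were then read from the 55471 genes of the batch 1 table. The other 11 members had no row in batch 2 and were counted as not detected there.

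The cells were derivatives of EO771 (also written E0771), a mouse mammary carcinoma line from a spontaneous tumour of C57BL/6 mice. They were grown in culture with no treatment compared between groups, and the drug G418 was used for selection. X2 cells carried the retroviral pLNCX2 vector as control. CCR7 cells had been transduced with mouse Ccr7, the gene of a chemokine receptor, and were the fraction sorted as negative for podoplanin (PDPN), a membrane glycoprotein. The fluorescent reporter tdTomato was introduced with Ccr7 and was also present in X2 cells, and the authors checked its level across the derivatives. CCR7-PDPN cells were the Ccr7-transduced cells sorted for high PDPN, and X2-PDPN cells were vector control cells sorted for high PDPN. Sorting of X2 for PDPN gave an enriched rather than a pure population, and none of the derivatives was a single clone. RNA from 24 libraries was sequenced in 2 batches: X2, CCR7 and CCR7-PDPN in batch 1, and X2, X2-PDPN and CCR7-PDPN in batch 2, with 4 libraries each. The 4 libraries of a group were technical replicates of 1 population, so every p-value below measures the spread between such libraries and not between independently made populations. CCR7 cells were sequenced in batch 1 alone and X2-PDPN cells in batch 2 alone, so all comparisons were made within a batch.

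The libraries held 22275468 to 33395418 counts in batch 1, and 22788542 to 35721027 in batch 2. Ccr7 was at 2716 to 3424 CPM (counts scaled to a common library total) in the transduced groups and at 0.954 CPM or less in the others, and Pdpn was at 23.6 to 26.9 CPM in the PDPN sorts and at 0.620 CPM or less elsewhere, so both genes followed the labels. CCR7 replicate 1 stood apart from the other libraries of its group, at 13.5 to 22.5 in chi-square divided by its degrees of freedom against each of them, where no other pair of replicates exceeded 8.48. It was the lowest CCR7 library for Ltbp1 and Bmpr1a, and without it the same numbers of members were called in the comparisons of CCR7, with Ltbp1 at a log2 fold change of -1.36 against X2. Of 7 epithelial markers, only Krt8 reached 1 TPM (counts scaled for exonic length and for library size), while Epcam and Cdh1 had at most 2 and 7 counts in any batch 1 library, and the summed level of the list was 415 to 575 TPM. None of 7 endothelial markers reached 1 TPM. Of 7 leukocyte markers, Cd68 and Cd74 carried a sum of 133 to 159 TPM in X2, 59.4 to 71.6 TPM in X2-PDPN, 45.4 to 61.5 TPM in CCR7 and 24.6 to 35.1 TPM in CCR7-PDPN, while Ptprc, the pan-leukocyte marker, had at most 4 counts in a batch 1 library. The sum of 6 muscle or pericyte markers, mostly Acta2 and Des, was 53.2 to 69.1 TPM in X2 and CCR7, 109.6 to 115 TPM in X2-PDPN and 32.3 to 35.4 TPM in CCR7-PDPN. Of 8 fibroblast markers 2 or 3 reached 1 TPM in a group, mostly Pdgfra and Pdgfrb, with a sum of 94.7 to 124 TPM. The part of these shifts in the results below was not tested.

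Ligands of the TGF-β family are secreted dimers that bring together type I and type II receptor kinases on the target cell. TGF-β and activin receptors phosphorylate SMAD2 and SMAD3, BMP receptors phosphorylate SMAD1, SMAD5 and SMAD9, and both groups enter the nucleus with SMAD4, while SMAD6 and SMAD7 inhibit the signal. TGF-β is stored in the matrix in a latent complex with latent TGF-β binding proteins, and in carcinoma cells the pathway is known both for restraint of growth and for mesenchymal change.

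Of the 32 members with a row in both tables, all were tested in every comparison, and 7 of them passed an adjusted p under 0.05 together with an absolute log2 fold change above 1 in at least 1 of the 6 comparisons. These were the ligands Tgfb2 and Bmp7, the latency proteins Ltbp1 and Ltbp2, the receptor Bmpr1a, the inhibitor Smad6 and the response gene Tgfbi. The other 25 did not pass both limits anywhere, and 15 had an absolute log2 fold change under 0.5 in all 6 comparisons. How many of all genes passed in at least 1 comparison was not counted, so the 7 have no share to be set against. Shares for each comparison follow below. In each of the 24 cases in which a member passed both limits in a comparison, the 4 libraries of the group did not overlap the 4 of its reference. With technical replicates these limits make overlap unlikely, and the share over all called genes was not counted, so this adds no support. Of the 32 members, 24 had 10 TPM or more in every group, and Ltbp2 alone was under 1 TPM in all of them.

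**Figure D1:**
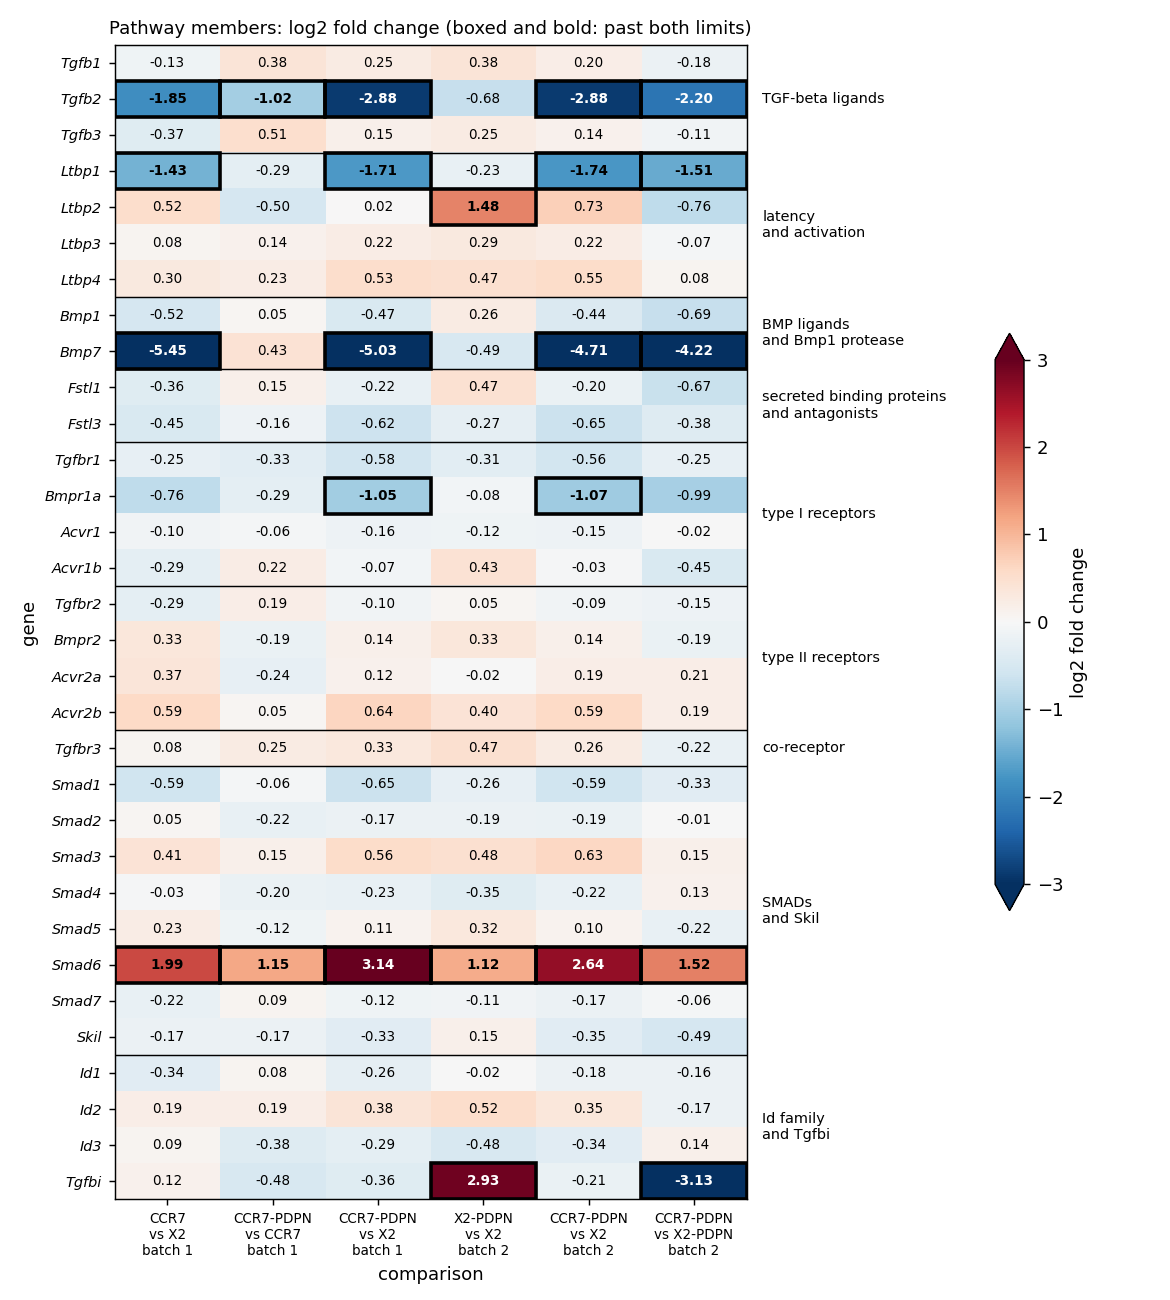
Log2 fold change (colour and number) of the 32 tested members (rows, by role) in the 6 comparisons (columns), with boxed bold cells past both limits. Tgfb2, Ltbp1 and Bmp7 were lower in every comparison of CCR7-PDPN or CCR7 with a vector control group, Smad6 was higher in all 6 comparisons, and Tgfbi passed the limits only where X2-PDPN was compared; the colour scale ends at an absolute value of 3, which Bmp7, Smad6 and Tgfbi exceeded.

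CCR7 against X2 asked what differed in PDPN-negative cells with Ccr7. Here 1 member rose (3.12% of 32, against 3.30% of all 13261 genes tested) and 3 fell (9.38%, against 3.18%). CCR7-PDPN against CCR7, the PDPN sort within the transduced cells, had 1 member higher (against 0.664% of all genes) and 1 lower (against 2.60%). In CCR7-PDPN against X2, 1 member rose and 4 fell in each batch, where 4.09% and 5.36% of all genes rose and fell in batch 1, and 3.96% and 5.67% of 13314 genes in batch 2. X2-PDPN against X2, the PDPN sort without Ccr7, had 3 members higher (9.38%, against 3.51% of all genes) and none lower by edgeR or DESeq2 (against 1.55%), although 12 were lower at an unadjusted p under 0.05 when no fold change limit was set. CCR7-PDPN against X2-PDPN had 1 member higher (against 2.76%) and 4 lower (12.5%, against 6.40%). These are counts of 4 members at most, so they describe the list and do not set it apart from other genes. The median log2 fold change of the members was -0.11, -0.01, -0.14, 0.20, -0.16 and -0.19 in the order of the columns of the fold change plot, where the median of all genes lay within 0.01 of 0.

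The sequence before the transcription start is shown for 4 of the 7 members, Tgfb2, Ltbp1, Smad6 and Tgfbi, as a ligand, a latency protein, an inhibitor and a response gene, since the pathway's own SMAD proteins are known to bind DNA. Ltbp2 and Bmpr1a also had an entry and are not printed. The windows come from RefSeq (GRCm38.p6), run 5′ to 3′ on the strand of the gene, hold at most 250 bases and stop before the annotated gene. Capitals mark CAGAC, the SMAD-binding core, or its reverse complement GTCTG, and GGCGCC, a GC-rich SMAD motif that reads the same on both strands. The palindrome GTCTAGAC, was also searched, and none of these strings contains another. Tgfb2 (chr1:186705990-186706239, minus strand), Ltbp1 (chr17:75005279-75005528, plus strand), Smad6 (chr9:64022060-64022309, minus strand) and Tgfbi (chr13:56609336-56609522, plus strand) read as follows.
Tgfb2: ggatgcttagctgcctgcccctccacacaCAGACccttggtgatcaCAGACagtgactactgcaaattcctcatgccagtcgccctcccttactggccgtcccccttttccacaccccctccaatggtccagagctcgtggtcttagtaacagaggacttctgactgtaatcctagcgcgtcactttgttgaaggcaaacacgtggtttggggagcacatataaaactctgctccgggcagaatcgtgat
Ltbp1: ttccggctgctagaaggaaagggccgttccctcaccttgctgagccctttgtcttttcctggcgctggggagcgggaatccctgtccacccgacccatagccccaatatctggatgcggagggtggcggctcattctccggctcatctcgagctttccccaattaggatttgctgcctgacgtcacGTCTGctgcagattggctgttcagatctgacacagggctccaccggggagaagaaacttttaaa
Smad6: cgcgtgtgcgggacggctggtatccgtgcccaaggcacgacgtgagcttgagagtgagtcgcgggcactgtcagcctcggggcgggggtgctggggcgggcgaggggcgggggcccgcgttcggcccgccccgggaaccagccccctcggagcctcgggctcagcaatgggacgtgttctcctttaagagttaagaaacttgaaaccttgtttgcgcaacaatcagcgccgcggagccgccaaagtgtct
Tgfbi: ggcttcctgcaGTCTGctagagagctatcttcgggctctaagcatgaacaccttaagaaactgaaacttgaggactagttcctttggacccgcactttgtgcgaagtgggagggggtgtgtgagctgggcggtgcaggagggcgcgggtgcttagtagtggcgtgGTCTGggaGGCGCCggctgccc
CAGAC or GTCTG occurred 2 times before Tgfb2, 1 time before Ltbp1, 2 times before Tgfbi and 0 times before Smad6, GGCGCC occurred 1 time, before Tgfbi, and GTCTAGAC in none of the 4. A further RefSeq start of Ltbp1 (chr17:75178531-75178780) held CAGAC or GTCTG 2 times, the window of Ltbp2 held it 2 times, and that of Bmpr1a held GGCGCC 1 time. Unlike the printed windows, those of the further Ltbp1 start and of Bmpr1a lie inside the annotated genes. Among 32851 windows of 250 bases over all RefSeq starts, 42.2% held CAGAC or its reverse complement, 9.59% held GGCGCC and 0.167% held GTCTAGAC, so the first motif is common. A match is a description of letters and not of a bound site. Of the 43 members, 30 matched a window, and Bmp7 was not among them.

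Tgfb2 (ENSMUSG00000039239, chromosome 1, 186622792 to 186705989, minus strand), a TGF-β ligand, had levels graded across the derivatives. In batch 1 it measured 6.36, 5.40, 5.79 and 6.37 CPM in the X2 libraries, 1.52, 1.67, 1.59 and 1.89 CPM in CCR7, and 0.883, 0.833, 0.845 and 0.678 CPM in CCR7-PDPN. In batch 2 the values were 6.04, 5.66, 6.20 and 5.80 CPM in X2, 3.52, 3.56, 3.41 and 4.34 CPM in X2-PDPN, and 0.801, 0.965, 0.695 and 0.736 CPM in CCR7-PDPN. The 3 groups of a batch did not overlap, X2 was highest and CCR7-PDPN lowest. Against X2, Tgfb2 fell by 1.85 on the log2 scale in CCR7 (SE 0.12, edgeR adjusted p = 1.49e-11) and by 2.88 in CCR7-PDPN in both batches (SE 0.13 and 0.14). CCR7-PDPN was lower than X2-PDPN by a log2 fold change of -2.20 (SE 0.15, adjusted p = 1.06e-16) and lower than CCR7 by -1.02 (SE 0.16, adjusted p = 2.94e-05). The last value lay next to the fold change limit and was -0.97 without CCR7 replicate 4 and -0.95 without CCR7-PDPN replicate 4, both short of it with adjusted p-values of 0.000148 and 0.00021. X2-PDPN against X2 gave -0.68, short of the limit.

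Tgfb1 and Tgfb3, the other TGF-β ligands, passed the fold change limit in no comparison. Their log2 fold changes ranged from -0.18 to 0.38 for Tgfb1 and from -0.37 to 0.51 for Tgfb3. Per length, Tgfb1 had 70.5 to 96.9 TPM and Tgfb3 33.6 to 50.7 TPM over the 6 groups, against 0.508 to 3.87 TPM for Tgfb2. Tgfb1 therefore made up 61.5% to 66.9% of the summed TPM of the 3 ligands in every group, and the share of Tgfb2 in batch 1 was 3.12% ± 0.145 (SD, n = 4) in X2, 1.04% ± 0.158 in CCR7 and 0.376% ± 0.0591 in CCR7-PDPN. In batch 2 X2 had 3.18% ± 0.236, X2-PDPN had 1.60% ± 0.158 and CCR7-PDPN had 0.389% ± 0.0373. The summed level of the 3 ligands was 105 TPM ± 9.54 in CCR7 and 124 TPM ± 4.34 in X2 of batch 1, and 150.01 TPM ± 1.53 in X2-PDPN and 120.4 TPM ± 4.79 in X2 of batch 2, so the low Tgfb2 was a small part of the ligand RNA.

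Ltbp1 (ENSMUSG00000001870, chromosome 17, 75005568 to 75392512, plus strand) encodes a latent TGF-β binding protein that fixes the latent complex to the matrix. It stood at 81.5, 82.0, 80.4 and 85.7 CPM in X2, 26.6, 31.4, 32.3 and 32.7 CPM in CCR7 and 25.1, 24.9, 27.0 and 23.7 CPM in CCR7-PDPN of batch 1. The batch 2 libraries gave 82.5, 90.1, 81.5 and 84.2 CPM in X2, 75.2, 69.5, 72.1 and 71.9 CPM in X2-PDPN and 24.6, 26.1, 27.2 and 23.2 CPM in CCR7-PDPN. Both Ccr7-transduced groups were thus far below both groups without Ccr7, while the transduced groups of batch 1 overlapped each other. Against X2, the log2 fold change of CCR7 was -1.43 (SE 0.05, adjusted p = 3.18e-15), that of CCR7-PDPN was -1.71 and -1.74 (SE 0.05 and 0.04), and it was -1.51 against X2-PDPN (SE 0.04, adjusted p = 1.05e-30). It was -0.29 in CCR7-PDPN against CCR7 and -0.23 in X2-PDPN against X2, both short of the limit.

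Ltbp2 (ENSMUSG00000002020), whose product shares the domain structure of the family but is a matrix protein that does not bind latent TGF-β, was the scarcest detected member at 0.134 to 0.378 TPM. It had 7 to 10 counts in the X2 libraries and 21 to 31 in the X2-PDPN libraries of batch 2, and rose by a log2 fold change of 1.48 (SE 0.32, adjusted p = 9.62e-05). CCR7-PDPN libraries of batch 2 scattered from 0.257 to 0.885 CPM and overlapped both groups. Ltbp3 and Ltbp4, which carried most of the family's RNA, stayed within -0.07 to 0.29 and 0.08 to 0.55 in log2 fold change, at 108 to 132 TPM and 109.6 to 163 TPM. As a share of the summed TPM of the 4 genes, Ltbp1 in batch 1 was 11.7% ± 0.523 in X2, 4.13% ± 0.448 in CCR7 and 3.00% ± 0.108 in CCR7-PDPN. In batch 2 X2 had 11.8% ± 0.299, X2-PDPN 8.05% ± 0.319 and CCR7-PDPN 2.95% ± 0.123. Thbs1, which encodes a thrombospondin that activates latent TGF-β, was among the undetected members.

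**Figure D2:**
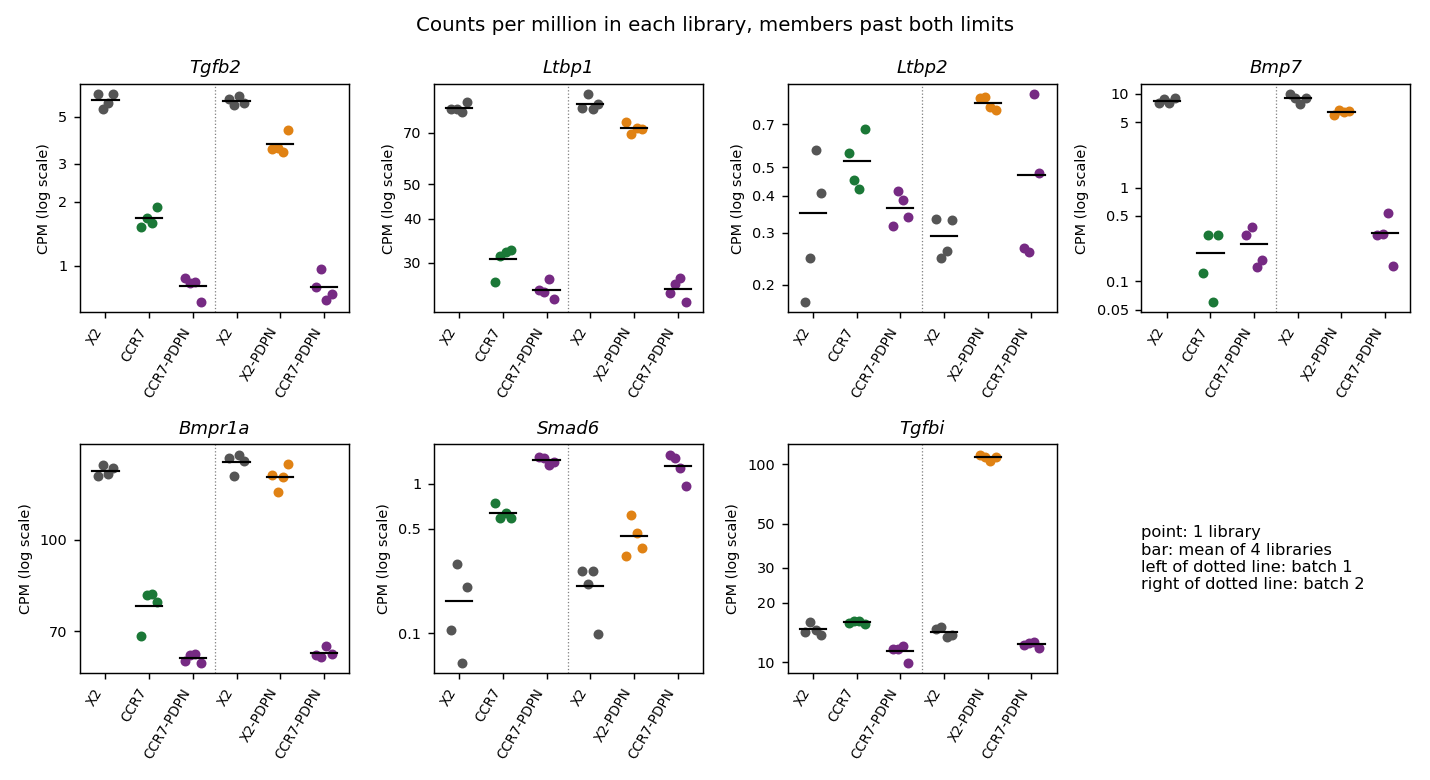
CPM (log axes, with a scale of its own in each panel) of the 7 members past both limits, with 1 point per library and a bar at the mean of 4. Tgfb2 and Ltbp1 were low in all transduced libraries, Bmp7 was at 0.537 CPM or less in them, Smad6 was highest in CCR7-PDPN, and Tgfbi exceeded 100 CPM in the X2-PDPN libraries alone.

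Bmp7 (ENSMUSG00000008999, chromosome 2, 172868012 to 172940321, minus strand) was the only BMP ligand among the members with a row in batch 2 and showed the largest log2 fold change of any member. The X2 libraries held 231, 214, 253 and 266 counts in batch 1 and 269, 254, 240 and 276 in batch 2, and X2-PDPN held 181, 240, 190 and 177. CCR7 libraries held 4, 9, 2 and 7 counts, and CCR7-PDPN libraries 10, 12, 4 and 5 in batch 1 and 7, 10, 17 and 4 in batch 2. No library with Ccr7 exceeded 0.537 CPM and none without it was under 5.96 CPM. The log2 fold change was -5.45 in CCR7 (SE 0.22, adjusted p = 8.99e-15) and -5.03 and -4.71 in CCR7-PDPN against X2 (SE 0.21 and 0.16), and -4.22 against X2-PDPN (SE 0.175, adjusted p = 9.26e-25). CCR7-PDPN against CCR7 (0.43) and X2-PDPN against X2 (-0.49) stayed short of the limit. In these bulk samples, fewer cells with the transcript and less transcript per cell cannot be told apart. Bmp2, Bmp4 and Bmp6, the other ligands of the list, and Inhba and Inhbb, the subunits of the activins, had no row in batch 2. In batch 1 Bmp2, Bmp4 and Inhbb had 0 counts in all 12 libraries, which allows up to 0.135 CPM in a library (3 counts of the smallest total, counting error only), and Bmp6 and Inhba had at most 3 and 2 counts. Bmp1 encodes a protease and not a BMP ligand. It cleaves procollagens and the BMP antagonist chordin, and had 78.8 to 135 TPM, highest in X2-PDPN and lowest in CCR7, with log2 fold changes from -0.69 to 0.26.

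Among the secreted binding proteins, Fst, Grem1 and Nog, which encode antagonists of activin (follistatin) and of BMPs (gremlin and noggin), were not detected in batch 2, with 1 count in all for Fst and 0 for Grem1 and Nog in batch 1. Fstl3, which encodes a follistatin-like inhibitor of activin, had negative log2 fold changes in all 6 comparisons, from -0.65 to -0.16, with the largest in CCR7-PDPN against X2 (-0.62 and -0.65, adjusted p = 6.52e-11 and 8.93e-19). Fstl1, which encodes a secreted glycoprotein, was at 121 TPM in CCR7 and 216 TPM in X2-PDPN and had log2 fold changes from -0.67 to 0.47. Neither passed the fold change limit.

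Of the type I receptors, Bmpr1a (ENSMUSG00000021796, chromosome 14, 34410734 to 34503341, minus strand), a BMP receptor, passed both limits in CCR7-PDPN against X2. It measured 128, 133, 129 and 132 CPM in X2, 68.8, 80.5, 80.9 and 78.3 CPM in CCR7 and 62.3, 63.8, 64.1 and 61.9 CPM in CCR7-PDPN of batch 1. In batch 2 the values were 137, 128, 139 and 136 CPM in X2, 129, 120.4, 127 and 134 CPM in X2-PDPN and 63.9, 63.3, 66.0 and 64.0 CPM in CCR7-PDPN. The transduced groups lay below the vector groups without overlap, and X2-PDPN overlapped X2. The log2 fold change in CCR7-PDPN against X2 was -1.05 (SE 0.04, adjusted p = 4.56e-15) and -1.07 (SE 0.03, adjusted p = 1.56e-29), just past the limit, while CCR7-PDPN against X2-PDPN (-0.99) and CCR7 against X2 (-0.76) were short of it. The other 53 genes tested in the 10 Mb stretch of chromosome 14 with Bmpr1a were lower as well by their median. It was -0.70 and -0.71 in CCR7-PDPN against X2, which leaves -0.35 and -0.36 for Bmpr1a relative to its neighbours. Bmp1, on the same chromosome, was at -0.47 and -0.44 where the median of its own neighbours was -0.48 and -0.46. The part of a shift of the whole region in these values was not tested further.

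Tgfbr1, the type I receptor for TGF-β, had log2 fold changes from -0.58 to -0.25, all negative and short of the limit, and 11.0 to 17.2 TPM. Acvr1 and Acvr1b, type I receptors for BMPs and for activins, ranged from -0.16 to -0.02 and from -0.45 to 0.43. Bmpr1b, a BMP receptor, was not detected in batch 2 and had at most 1 count in a batch 1 library. Every type II receptor among the members was detected and stayed short of the limit. Tgfbr2, for TGF-β, was the scarcest of them at 4.88 to 5.98 TPM, Bmpr2, for BMPs, had 21.2 to 26.8 TPM, and the activin receptors Acvr2a and Acvr2b had 29.9 to 39.3 and 9.85 to 15.1 TPM. Acvr2b had positive values in all 6 comparisons, up to 0.64, and Tgfbr2 lay between -0.29 and 0.19. Both lie on chromosome 9, where the neighbours of Acvr2b and Tgfbr2 had a median of 0.42 and 0.43 in CCR7-PDPN against X2 of batch 1, where Acvr2b was at 0.64 and Tgfbr2 at -0.10. Tgfbr3, the co-receptor betaglycan, had 72.1 to 108 TPM and -0.22 to 0.47.

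**Figure D3:**
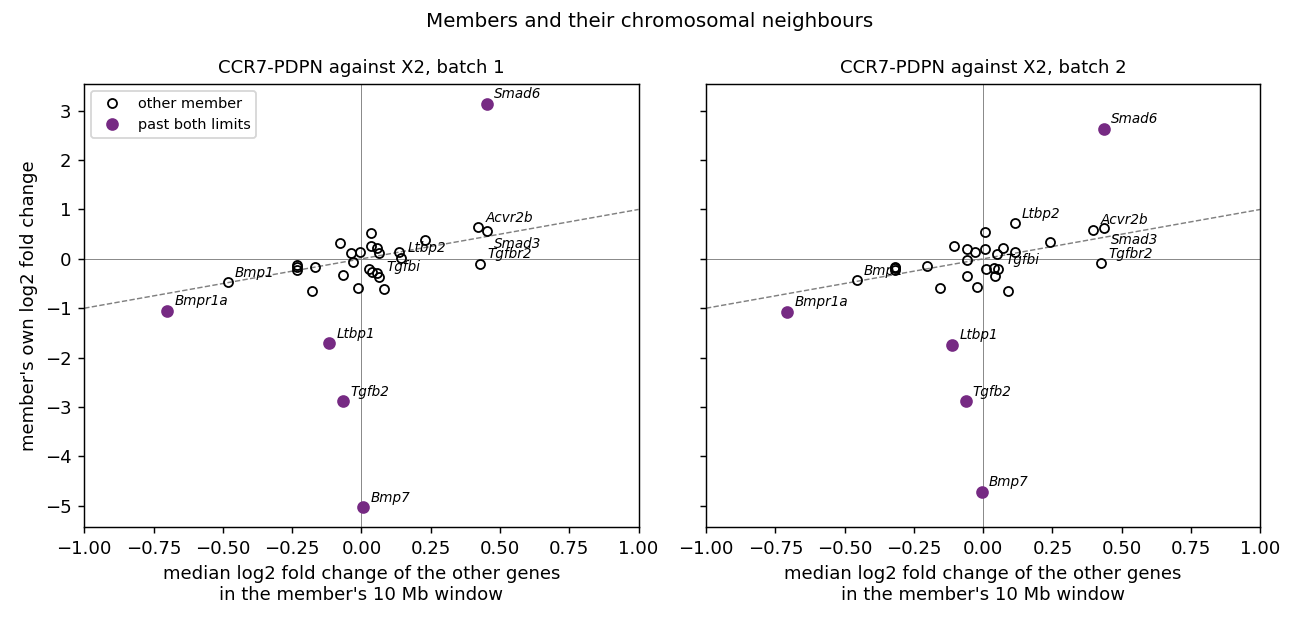
Log2 fold change of each tested member (vertical axis) against the median of the other genes in its 10 Mb window (horizontal axis) for CCR7-PDPN against X2 in both batches, with filled points past both limits and a dashed line where member and neighbours are equal. Bmpr1a had neighbours at -0.70 and -0.71, whereas Bmp7, Tgfb2 and Ltbp1 fell in windows with medians between -0.12 and 0.01, and Smad6 lay far above neighbours at 0.45 and 0.44.

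Smad6 (ENSMUSG00000036867, chromosome 9, 63953076 to 64022059, minus strand), an inhibitory SMAD that acts mainly on BMP signals, rose in all 6 comparisons from a very low level. It had 3, 7, 2 and 6 counts in X2, 24, 17, 21 and 13 in CCR7 and 48, 46, 38 and 41 in CCR7-PDPN of batch 1. In batch 2 the libraries held 7, 6, 8 and 3 counts in X2, 10, 22, 14 and 10 in X2-PDPN and 35, 46, 40 and 26 in CCR7-PDPN. X2 was lowest and CCR7-PDPN highest in both batches, without overlap. Relative to X2, the log2 fold change was 1.99 in CCR7 (SE 0.33, adjusted p = 3.71e-05), 1.15 in CCR7-PDPN against CCR7 (SE 0.21, adjusted p = 0.000204), 3.14 and 2.64 in CCR7-PDPN against X2 (SE 0.29 and 0.30) and 1.52 against X2-PDPN (SE 0.25, adjusted p = 1.14e-06). In X2-PDPN against X2 it was 1.12 (SE 0.37, adjusted p = 0.00892) and rested on single libraries, with 0.88 (adjusted p = 0.0501) without X2 replicate 4 and 0.90 (adjusted p = 0.0603) without X2-PDPN replicate 2. Neighbours of Smad6 on chromosome 9 had medians of 0.44, 0.04, 0.45, 0.18, 0.44 and 0.22 in the order of the columns of the fold change plot. Even in CCR7-PDPN, Smad6 reached only 1.64 TPM in batch 1, and its share of the summed TPM of Smad6 and Smad7 went from 0.640% ± 0.392 in X2 to 5.75% ± 0.179 in that group. Smad7, the inhibitor that also acts on TGF-β receptors, stayed within -0.22 to 0.09 at 25.7 to 32.0 TPM.

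No member SMAD that carries the signal passed the limits, whereas Smad9, which is not on the list of members, did and is given with the other pathway genes. Smad4, the shared partner, had 129 to 164 TPM and log2 fold changes from -0.35 to 0.13. Smad3 was positive in all 6 comparisons (0.15 to 0.63) and Smad2 lay between -0.22 and 0.05, so that the share of Smad3 in their summed TPM was 55.2% ± 0.728 in X2 of batch 1 and 67.2% ± 1.32 in CCR7-PDPN. Smad3 lies in the same 10 Mb window of chromosome 9 as Smad6, whose median was 0.45 where Smad3 was at 0.56. In the BMP branch Smad1 was negative throughout (-0.65 to -0.06) and Smad5 lay between -0.22 and 0.32, and the share of Smad1 in the summed TPM of both in batch 1 was 31.4% ± 0.802 in X2, 20.7% ± 1.40 in CCR7 and 21.3% ± 0.983 in CCR7-PDPN. For batch 2, X2 had 30.3% ± 1.02, X2-PDPN 22.5% ± 0.802 and CCR7-PDPN 21.1% ± 0.586. These shares are differences in level given without a test. Smad1 lies on chromosome 8, where its neighbours had a median of -0.26 in CCR7 against X2 and Smad1 was at -0.59. Skil, which encodes the SMAD co-repressor SnoN, ranged from -0.49 to 0.15 at 10.6 to 15.3 TPM.

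Of the response genes of the list, the detected Id genes stayed short of the fold change limit and Tgfbi passed it. Id1, Id2 and Id3 encode inhibitors of basic helix-loop-helix factors and are well-known targets of BMP signals. Id1 had 138 to 182 TPM and log2 fold changes from -0.34 to 0.08, Id2 had 7.42 to 10.6 TPM and -0.17 to 0.52, and Id3 had 35.6 to 49.6 TPM and -0.48 to 0.14. Bmp7 fell by more than 4 on the log2 scale in CCR7 and in CCR7-PDPN against X2. There Id1 was at -0.34 in CCR7 (edgeR adjusted p = 4.97e-07) and at -0.26 and -0.18 in CCR7-PDPN of batch 1 and 2. In the same order Id2 was at 0.19, 0.38 and 0.35, and Id3 at 0.09, -0.29 and -0.34. Whether the response to BMP signals differed was not tested. Id4 had 0 counts in batch 1 and no row in batch 2.

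Tgfbi (ENSMUSG00000035493, chromosome 13, 56609523 to 56639562, plus strand), which encodes a matrix protein first found as a TGF-β-induced gene, was high in X2-PDPN alone. Its values were 14.7, 15.1, 13.4 and 13.8 CPM in X2, 111, 109, 103 and 109 CPM in X2-PDPN and 12.3, 12.5, 12.7 and 11.8 CPM in CCR7-PDPN of batch 2. In batch 1 they were 14.3, 16.0, 14.6 and 13.8 CPM in X2, 15.7, 16.2, 16.1 and 15.7 CPM in CCR7 and 11.7, 11.7, 12.2 and 9.96 CPM in CCR7-PDPN. Thus only X2-PDPN stood apart, and CCR7-PDPN libraries, although sorted for the same surface protein, were all below every X2 library. Tgfbi rose by a log2 fold change of 2.93 in X2-PDPN against X2 (SE 0.04, adjusted p = 4e-41) and had a log2 fold change of -3.13 in CCR7-PDPN against X2-PDPN (SE 0.04, adjusted p = 2.72e-42). CCR7-PDPN against CCR7 gave -0.48, short of the limit. The sum of muscle or pericyte markers was also highest in X2-PDPN, and its part in the result for Tgfbi was not tested.

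Whether the PDPN sort changed members differently with and without Ccr7 was tested as the difference between CCR7-PDPN minus CCR7 in batch 1 and X2-PDPN minus X2 in batch 2. No member was above the limits by edgeR or DESeq2 (5 were positive at an unadjusted p under 0.05, and 0.964% of all 13690 genes were called), and 2 were below them, Tgfbi and Ltbp2 (6.25% of 32, against 4.48% of all genes). The difference was -3.41 for Tgfbi (SE 0.07, adjusted p = 8.97e-30) and -1.98 for Ltbp2 (SE 0.46, adjusted p = 0.000699). For CCR7-PDPN it used the batch 1 libraries alone. Ltbp2 in CCR7-PDPN against X2 was at 0.02 in batch 1 and 0.73 in batch 2, so its difference depends on the batch used. The PDPN sort with Ccr7 was read in batch 1 and that without it in batch 2, and a difference of batches in the PDPN sort cannot be told apart from a difference of backgrounds.

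**Figure D4:**
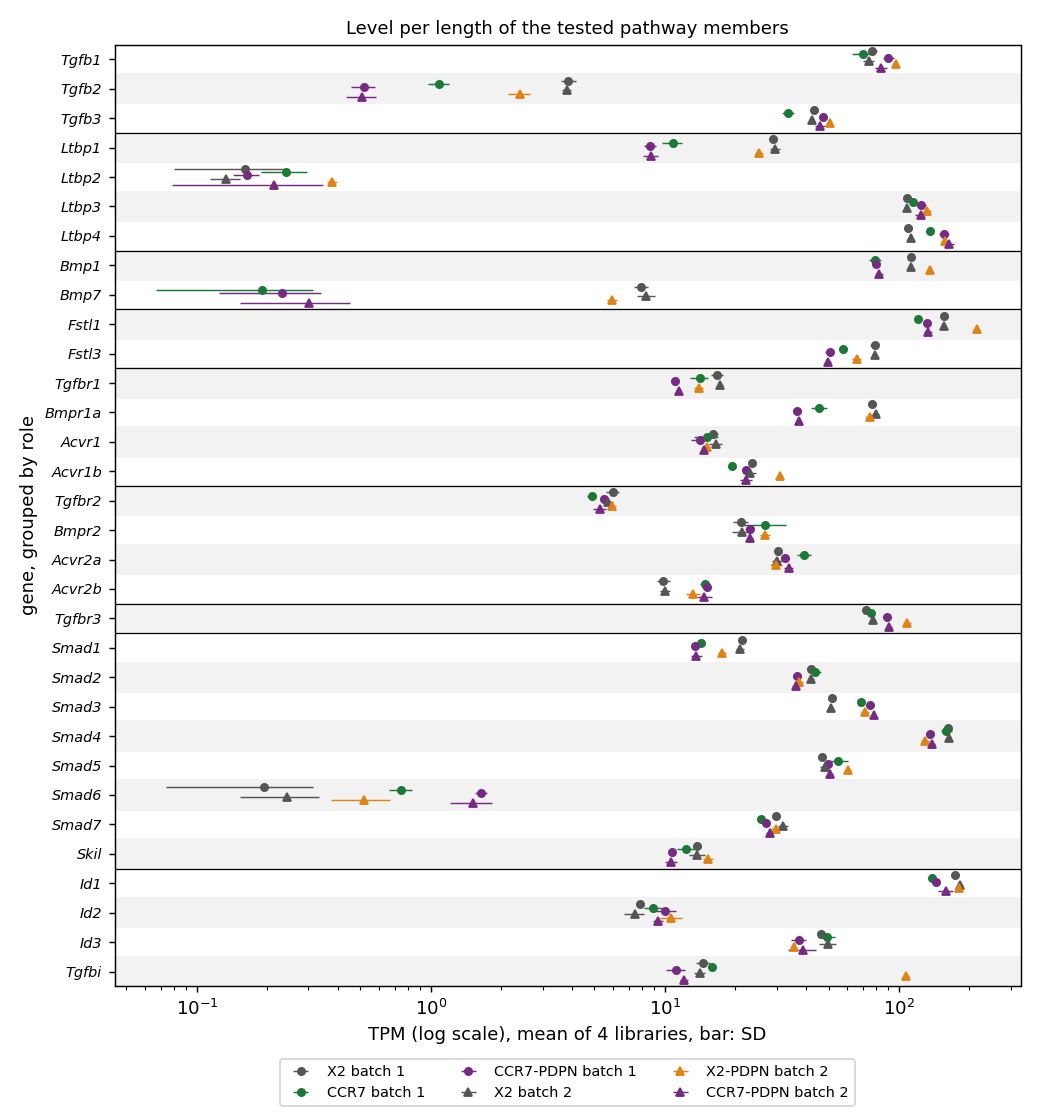
Level per length (TPM, log axis; mean of 4 libraries with SD) of the 32 tested members in the 6 groups, with circles for batch 1 and triangles for batch 2. Most members lay between 10 and 200 TPM with all groups close together, whereas Tgfb2, Ltbp1, Bmp7 and Smad6 were spread by group and Tgfbi stood apart at 108 TPM in X2-PDPN.

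CCR7-PDPN against X2 was sequenced in both batches and so gave each member a repeat, although of the same cell populations. All 32 members had the same sign in both batches, and the same 5 (Tgfb2, Ltbp1, Bmp7, Bmpr1a and Smad6) passed both limits in both. Such repeats were not counted over all genes, so they do not set the members apart. The median absolute difference between the batches was 0.0295 on the log2 scale, and the largest was 0.705, for Ltbp2.

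Other genes of the pathway were taken from a list of 94 that are not members, of which 49 were tested in each comparison. CCR7-PDPN against X2 had more calls than any other comparison of its batch. They were 1 higher and 13 lower in batch 1, and 1 higher and 11 lower in batch 2, or 1 and 12 by DESeq2. The comparison of CCR7-PDPN with X2-PDPN had 10 lower, CCR7 against X2 had 9 and CCR7-PDPN against CCR7 had 2. None rose in these 3 comparisons by edgeR or DESeq2 (1 rose in CCR7 against X2 without CCR7 replicate 1 or X2 replicate 4, and 1 in CCR7-PDPN against CCR7 without CCR7 replicate 2), where 8, 14 and 15 were higher at an unadjusted p under 0.05. X2-PDPN against X2 had 3 higher and 1 lower (2 by DESeq2). The share of all genes called is given above for each comparison, and the median log2 fold change of the tested genes was between -0.15 and 0.09.

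Among genes known to be induced by TGF-β or BMP, 14 of 24 were tested in batch 1, and 7 fell (5.36% of all genes fell) and none rose (4.09% of all genes rose) in CCR7-PDPN against X2. In batch 2, 13 were tested, of which 6 fell in CCR7-PDPN against X2 (against 5.67%) and 0 passed the limits in either direction in X2-PDPN against X2 (against 3.51% higher and 1.55% lower). The median log2 fold change of the tested genes of this list in CCR7-PDPN against X2 was -0.54 in batch 1 and -0.04 in batch 2. The calls therefore do not describe the list as a whole. Ccn1 and Ccn2, which encode matricellular proteins, fell by 1.85 and 1.94 in CCR7-PDPN against X2 of batch 1, and were at -0.88 and -0.97 in X2-PDPN against X2, short of the limit. Acta2, smooth muscle actin, fell by 1.25 in CCR7-PDPN against X2 but was at 0.85 in X2-PDPN against X2. The cytokine genes Il11 and Lif fell by 1.54 and 1.03 in CCR7 against X2 and by 1.50 and 1.35 in CCR7-PDPN, and Snai2, the gene of a transcriptional repressor, fell by 1.70 and 2.05 at no more than 25 counts in a library and was not tested in batch 2.

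**Figure D5:**
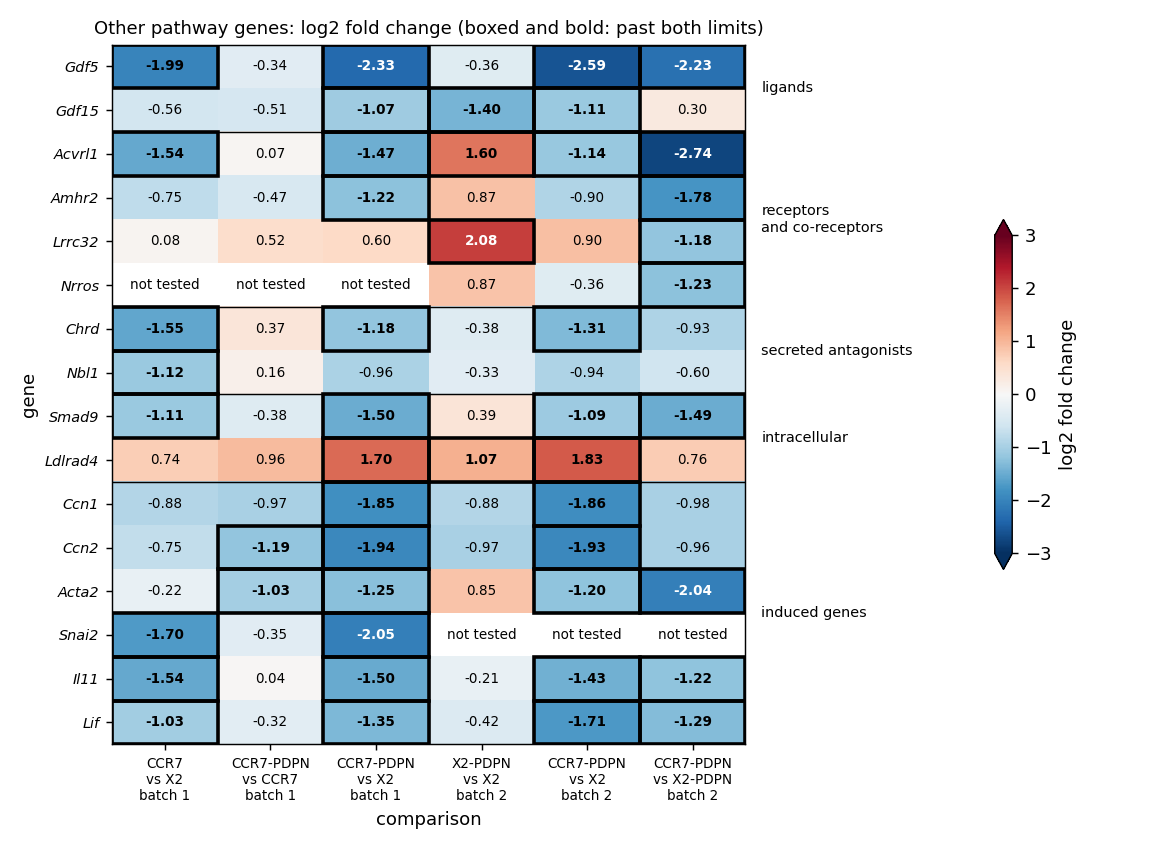
Log2 fold change (colour and number) of other pathway genes that passed both limits in at least 1 comparison, by role, with boxed bold cells past both limits. Blue cells prevail in the comparisons of CCR7 and CCR7-PDPN with vector control groups, with Ldlrad4 as the only one past both limits and higher in CCR7-PDPN against X2, where Lrrc32 was at 0.60 and 0.90, and Acvrl1 and Lrrc32 rose in X2-PDPN against X2.

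Further called genes lay upstream. Gdf5, a ligand of the BMP group, was at 1.78 TPM ± 0.313 in X2, 0.439 TPM ± 0.113 in CCR7 and 0.341 TPM ± 0.0942 in CCR7-PDPN of batch 1 and had log2 fold changes of -1.99 and -2.33. Chrd, which encodes the BMP antagonist chordin, fell by 1.55 and 1.18 in the same comparisons, and Nbl1, another BMP antagonist, by 1.12 in CCR7. Smad9, a BMP-branch SMAD, fell by 1.11 and 1.50. Acvrl1, a type I receptor for BMP9 and BMP10, was lower in CCR7 (-1.54) and CCR7-PDPN (-1.47) than in X2 and higher in X2-PDPN (1.60), at 3 to 92 counts over all libraries. Lrrc32, whose product tethers latent TGF-β to the cell surface, rose by a log2 fold change of 2.08 in X2-PDPN against X2 (from 1.63 TPM ± 0.326 up to 6.94 TPM ± 0.464). Ldlrad4, which restrains TGF-β signals, rose by 1.70 and 1.83 in CCR7-PDPN against X2 and by 1.07 in X2-PDPN. Gdf15, a distant member of the family, fell by 1.40 in X2-PDPN against X2 and by 1.07 and 1.11 in CCR7-PDPN. Amhr2, a type II receptor, and Nrros, a second tether of latent TGF-β at no more than 15 counts, were lower in CCR7-PDPN than in X2-PDPN. So were Acvrl1 and Lrrc32, the latter at 3.00 TPM ± 0.481 in CCR7-PDPN of batch 2. Amhr2 was also called lower in CCR7-PDPN than in X2 of batch 1 (1.59 against 3.79 TPM).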

How the data were processed

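RNA for 24 libraries was prepared by the authors with a stranded mRNA kit and sequenced single-end. The authors deposited raw read counts per Ensembl gene in 1 table per batch, and mouse build GRCm38/mm10 is named in the labels. The batch 2 table holds fewer genes than that of batch 1. Groups were taken from the labels. The members and gene lists were chosen with earlier results of these data known.

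Counts were fitted within each batch over all 3 groups with edgeR 4.0.16 in R 4.3.3 (TMM scaling, filterByExpr, robust quasi-likelihood fit and test), with Benjamini-Hochberg adjustment over 13261 genes in batch 1 and 13314 in batch 2. Calls needed an adjusted p below 0.05 together with a log2 fold change beyond 1 in size. The difference of the PDPN sorts was fitted over both batches on 13690 genes. Standard errors are the absolute log2 fold change divided by the square root of the F statistic. CPM were scaled by TMM, and TPM used exonic lengths. The window median is that of the other tested genes in the same fixed 10 Mb stretch of the chromosome. Genes were placed by their midpoint, so a member can lie near the edge of its window. The named genes were all members, and of the other pathway genes those called in at least 1 comparison, except 1 gene that is counted but not reported here by name. DESeq2 1.42.0, other filters, leaving out each library, a replicate block and subtraction of the window median were alternatives. Counts were simulated for X2 against CCR7 (13254 genes) and X2-PDPN against CCR7-PDPN (13347 genes). In each, all 200 genes given a change were recovered with its sign, and 1 gene without a change was also called. Recovery was not broken down by count or by size of the change. It therefore does not show how calls fare at few counts, as for Smad6 and Ltbp2, or next to the fold change limit. Replicates were checked for copies, and over 36 pairs the chi-square per degree of freedom was 2.07 to 22.5 (13.5 or more only for CCR7 replicate 1), so none was taken as a copy. An undetected gene was bounded by 3 counts. Totals of 22275468 to 35721027 counts limit members at few counts, such as Smad6 and Ltbp2. Python 3.11.15, numpy 2.4.6, pandas 2.3.3 and matplotlib 3.10.9 were used for levels and plots.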

Additional observations from a re-analysis of the deposited data

Results flagged for a closer look

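In X2-PDPN replicate 4, Tgfb2 was at 4.34 CPM, far from the other 3 libraries of its group (3.41 to 3.56 CPM). This was 1 of 42 member and group sets checked, of which chance alone marks about 1 in 20.

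The response to the PDPN sort differed between cells with and without Ccr7 for Tgfbi (difference -3.41, edgeR adjusted p = 8.97e-30) and Ltbp2 (difference -1.98, adjusted p = 0.000699). Both differences set batch 1 against batch 2, and Ltbp2 rests on at most 31 counts in a library. Ltbp2 also varied between the batches in CCR7-PDPN against X2 (0.02 in batch 1 and 0.73 in batch 2).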

How the results depend on the processing

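With no fold change limit, more members were called, with 6 higher and 15 lower in CCR7 against X2, 10 and 12 in CCR7-PDPN against CCR7, 11 and 16 in CCR7-PDPN against X2 of batch 1, 17 and 12 in X2-PDPN against X2, 12 and 17 in CCR7-PDPN against X2 of batch 2, and 6 and 21 in CCR7-PDPN against X2-PDPN. When 1 library was left out, members lower in CCR7-PDPN against CCR7 numbered 0 to 1 (Tgfb2 at -0.97 without CCR7 replicate 4 and -0.95 without CCR7-PDPN replicate 4), and members higher in X2-PDPN against X2 numbered 2 to 3, where Smad6 fell short at 0.88 without X2 replicate 4 and 0.90 without X2-PDPN replicate 2. The other counts of members stayed within 1.5 times under every alternative run. Of the single values, 322 kept direction and call, 4 fell short of the limits and 9 moved when the window median was subtracted, and none reversed. Replicate numbers did not pair the libraries: 24 correlations of same-numbered libraries lay between -0.12 and 0.106, and 6 of 24 libraries matched their own number best. With the replicate block, 1 member was higher and 3 lower in CCR7 against X2, 3 higher and 0 lower in X2-PDPN against X2 and 1 higher and 4 lower in CCR7-PDPN against X2 of each batch, as without it. Counts of other pathway genes were repeated under the same alternatives, chosen after seeing the data. Depth limits Smad6 in X2 and Ltbp2, and the p-values cover technical spread alone.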
